A study of Homo sapiens with 12 samples.

Results

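The transcripts described here are those of 10 transcription factors that are markers or drivers of a mesenchymal cell state: PRRX1, TWIST1, SNAI1, SNAI2, ZEB1, ZEB2, FOSL1, FOSL2, RUNX1 and RUNX2. They were taken by symbol from a deposited count table of 59087 features, and all 10 symbols were found. RNA came from SH-SY5Y, an established human neuroblastoma line, in 12 poly(A)-selected libraries. The 4 groups of 3 libraries are FMR1-knockout cells (KO) in heavy medium, KO cells in light medium, wild-type cells (WT) in heavy medium and WT cells in light medium, each after 2 weeks. Heavy and light SILAC media differ in the isotopes of arginine and lysine. The KO libraries come from 3 independently made lines, each sequenced once per medium. FMR1 encodes FMRP, an RNA-binding regulator of translation. Each line is set against the same WT cells, so the loss of FMR1 and the derivation of a line cannot be told apart. WT libraries carry only a number and no statement of separate cultures, so p-values measure the spread between these libraries, which may be technical.

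Neuroblastoma cells can take an adrenergic state, held by factors of the sympathetic lineage, or a mesenchymal state, which resembles migratory neural crest cells. TWIST1 is a basic helix-loop-helix factor and SNAI1, SNAI2, ZEB1 and ZEB2 are zinc finger factors; all bind E-boxes, short DNA motifs, and repress epithelial genes such as that of E-cadherin. FOSL1 and FOSL2 are Fos-family subunits of AP-1, RUNX1 and RUNX2 are the DNA-binding subunits of core-binding factor, and PRRX1 is a homeobox factor of mesenchyme that marks the mesenchymal state of neuroblastoma.

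Libraries held between 25935152 and 40257027 counts. Levels are CPM, counts scaled to a common depth by the TMM-adjusted library size. FMR1 mRNA stood at 7.19 to 22.4 CPM in the 6 KO libraries, against 35.9 to 42.0 CPM in the 6 WT libraries (log2 fold change -1.62, SE 0.217, edgeR adjusted p = 0.00131). The library labelled KO line 1, heavy, held the highest KO value, at 59.3% of the WT mean, against 19.1% to 33.9% in the other KO libraries. Over all genes its deviation from its group mean had r = 0.09 with that of the light library of the same line, whereas the same correlation was 0.62 for line 2 and 0.66 for line 3. Counts of calls are given without this library below where it moved them. Most sympathoadrenal markers of such cells were abundant: DBH, the enzyme that makes noradrenaline, stood at 934 to 1972 CPM in KO and 1999 to 2477 CPM in WT, although TH, the first enzyme of that pathway, reached no more than 1.04 CPM. The immune markers PTPRC and CD3E, the Schwann cell markers SOX10 and CDH19 and the fibroblast markers DCN, POSTN and FAP had 0 counts in every library. The summed level of the 10 fibroblast markers was 176 to 244 CPM in KO and 280 to 304 CPM in WT, and that of the 10 Schwann cell markers 15.0 to 44.6 CPM in KO and 12.1 to 15.5 CPM in WT, and the part of these in the results below was not tested. In bulk RNA, fewer cells of a type and less RNA per cell cannot be told apart.

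Upstream sequences were taken from a set of RefSeq promoters (GRCh38.p14) and cut to windows of 250 bases before a start site. The set at hand held PRRX1, ZEB1, ZEB2, FOSL2, RUNX1 and RUNX2. It held no window for TWIST1, SNAI1, SNAI2 and FOSL1, which is a limit of that set. The windows of 3 genes are shown in their stretch free of annotated coding-gene exons: FOSL2 because its RNA rose, RUNX1 because it had 0 counts in a whole line, and ZEB1 because the most upstream of its windows holds the E-box form that SNAI and ZEB factors bind. They read 5′ to 3′ on the strand of the gene, and capitals mark CANNTG, the general E-box.
FOSL2, chr2:28392608-28392801, plus strand: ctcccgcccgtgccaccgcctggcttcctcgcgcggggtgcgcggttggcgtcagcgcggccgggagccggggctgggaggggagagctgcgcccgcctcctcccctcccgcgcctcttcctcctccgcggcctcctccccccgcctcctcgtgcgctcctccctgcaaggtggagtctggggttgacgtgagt
RUNX1, chr21:34888700-34888949, minus strand: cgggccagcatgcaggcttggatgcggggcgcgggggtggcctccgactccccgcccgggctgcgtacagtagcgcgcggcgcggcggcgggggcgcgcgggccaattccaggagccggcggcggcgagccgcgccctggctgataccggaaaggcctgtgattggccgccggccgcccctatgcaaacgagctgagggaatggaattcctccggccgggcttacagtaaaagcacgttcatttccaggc
ZEB1, chr10:31318167-31318416, plus strand: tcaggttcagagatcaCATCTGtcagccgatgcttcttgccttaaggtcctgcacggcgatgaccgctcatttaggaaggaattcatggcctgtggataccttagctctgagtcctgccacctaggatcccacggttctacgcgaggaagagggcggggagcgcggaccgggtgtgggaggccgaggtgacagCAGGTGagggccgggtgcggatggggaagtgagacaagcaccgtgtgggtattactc
Counting positions back from the start site, the ZEB1 window holds CANNTG at -234 and at -57, and the match at -57 reads CAGGTG. The FOSL2 window holds 1 CANNTG, at -51, inside an annotated exon and so outside the stretch shown, and the RUNX1 window holds none. Of 35116 RefSeq promoter windows of this length, 61.8% hold CANNTG, 17.5% hold CAGGTG on either strand (CACCTG on the other), 6.57% hold TGANTCA, the AP-1 motif, and 11% hold TGTGGT on either strand (ACCACA on the other), the core RUNX motif. CAGGTG is one form of CANNTG, so those matches overlap. Neither TGANTCA nor the RUNX core is in any of these 3 windows. ZEB1 has further windows that are not shown. Of these, chr10:31318966-31319215 holds the RUNX core at -246, CACCTG at -242 and CAGGTG at -85. The ZEB1 window chr10:31320304-31320553 holds the RUNX core at -249.

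Divided by the length of all annotated exons, which lowers genes with many isoforms, the levels in WT cells spanned several orders of magnitude. TWIST1 stood far above the rest, at 124 ± 19.4 CPM per kb in KO and 165 ± 5.20 CPM per kb in WT (SD, n = 6 each). ZEB1 followed, at 7.12 ± 0.892 in KO and 5.98 ± 0.698 CPM per kb in WT, and SNAI1 at 4.76 ± 1.49 in KO and 4.38 ± 0.493 CPM per kb in WT. ZEB1 and SNAI1 overlapped in their WT libraries, as did the next but one pair, FOSL2 at 1.92 ± 0.283 in KO and 1.47 ± 0.0706 CPM per kb in WT, and SNAI2 at 0.780 ± 0.391 in KO and 1.14 ± 0.198 CPM per kb in WT. Between these pairs lay ZEB2, at 1.93 ± 0.302 in KO and 2.63 ± 0.305 CPM per kb in WT. FOSL1 (0.119 ± 0.0553 in KO and 0.144 ± 0.0604 CPM per kb in WT) and RUNX1 (0.00948 ± 0.012 in KO and 0.0257 ± 0.00864 CPM per kb in WT) closed the order of the tested factors.

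**Figure D1:**
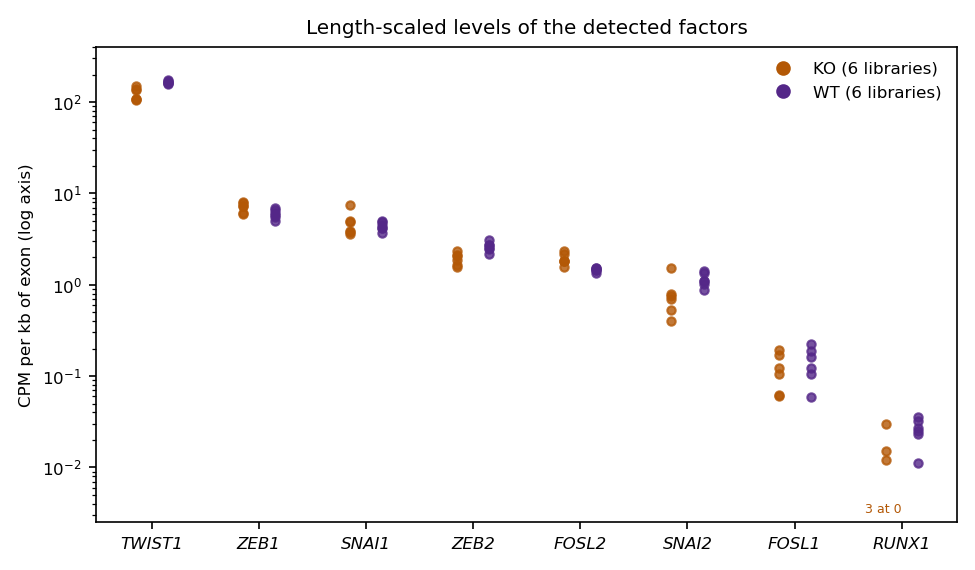
Level per kilobase of annotated exon (log axis) of the 8 factors that passed the filter on low counts, 1 point per library, KO left of WT; libraries with 0 counts are written as a number. TWIST1 lies above 100 CPM per kb in all 12 libraries, and RUNX1 reaches at most 0.0359 CPM per kb.

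PRRX1 and RUNX2 were at or near 0. PRRX1 (chr1:170662728-170739419, plus strand, GRCh38) had 0 counts in all 12 libraries, which allows up to 0.0151 CPM over the 6 KO libraries and 0.0152 CPM over the 6 WT libraries, taking 3 counts per group as the floor. RUNX2 (chr6:45328157-45664349, plus strand) had 1 count in the heavy library of KO line 2, 1 count in that of line 3 and 0 counts in the other 10 libraries. Neither passed the filter, so 8 of the 10 factors were tested.

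Over both media, 3 of the 8 tested factors changed in KO: TWIST1 and ZEB2 fell and FOSL2 rose. Among all 16704 genes tested, 24.8% changed, 15.0% upwards and 9.78% downwards. The median log2 fold change of the 8 factors was -0.33, and that of all genes 0.003. By line, the median of the 8 was -0.43 in line 1, -0.65 in line 2 and -0.02 in line 3. When the counts of each number were summed, so that KO entered as 3 lines against 3 WT sums, none of the 8 passed (adjusted p = 0.0741 for TWIST1, 0.0932 for ZEB2 and 0.0562 for FOSL2, edgeR), although 4 had an unadjusted p under 0.05. In that fit 272 of 17726 genes passed, 193 of them higher. RUNX1 and FOSL1 entered the test on few counts and mostly through the libraries in which they are highest.

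**Figure D2:**
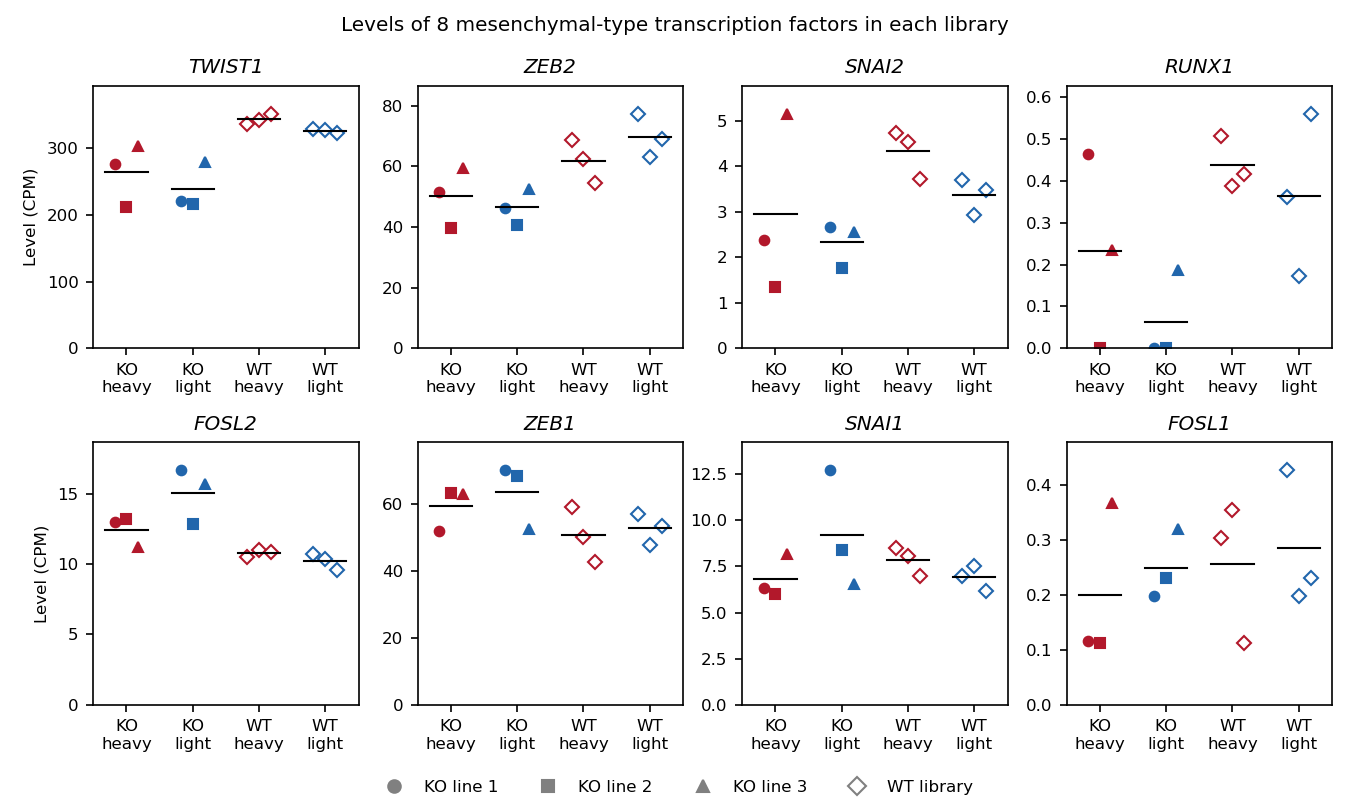
Level (CPM) of 8 factors in each library, KO groups left of WT groups, heavy medium in red and light in blue; filled symbols are the 3 KO lines, open diamonds are WT libraries and bars are group means. TWIST1 is lower and FOSL2 higher in all 6 KO libraries than in any WT library. The share of all genes that separate in this way was not counted.

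TWIST1 (chr7:19020991-19117672, minus strand), which represses cell adhesion genes and drives neural crest migration, had 276 CPM (heavy medium) and 221 CPM (light medium) in KO line 1, 212 and 217 CPM in line 2, and 303 and 279 CPM in line 3. WT cells had 336, 341 and 351 CPM in heavy medium and 328, 328 and 322 CPM in light medium. All 6 KO libraries lay below all 6 WT libraries, and line 2 was lowest. How many of all genes separate the genotypes in this way was not counted, here and for the factors below. The mean was 251 ± 39.4 CPM in KO and 334 ± 10.6 CPM in WT (SD, n = 6 each; log2 fold change -0.41, SE 0.081, edgeR adjusted p = 0.00456). An antisense transcript, AC003986.2, overlaps 141 bases of its exons and had 41 to 97 counts. Because the strand setting of the counting is not given, antisense pairs cannot be kept apart.

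ZEB2 (chr2:144364364-144524583, minus strand), a zinc finger repressor of E-cadherin that also acts in neural crest development, had 51.4 CPM (heavy medium) and 46.3 CPM (light medium) in KO line 1, 39.6 and 40.7 CPM in line 2, and 59.3 and 52.5 CPM in line 3. WT cells had 68.5, 62.3 and 54.6 CPM in heavy medium and 77.2, 63.2 and 69.0 CPM in light medium. The heavy library of line 3 overlapped the WT range, and the other 5 KO libraries lay below it. The mean was 48.3 ± 7.56 CPM in KO and 65.8 ± 7.63 CPM in WT (SD, n = 6 each; log2 fold change -0.44, SE 0.106, edgeR adjusted p = 0.0119). The antisense ZEB2-AS1 shares 1299 exonic bases and had 1 to 19 counts.

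FOSL2 (chr2:28392448-28417312, plus strand), an AP-1 subunit that pairs with Jun proteins, had 13.0 CPM (heavy medium) and 16.7 CPM (light medium) in KO line 1, 13.2 and 12.8 CPM in line 2, and 11.2 and 15.7 CPM in line 3. WT cells had 10.5, 11.0 and 10.8 CPM in heavy medium and 10.7, 10.3 and 9.58 CPM in light medium. Every KO library lay above every WT library, the heavy library of line 3 by the least, a separation that was not counted over all genes. The mean was 13.8 ± 2.03 CPM in KO and 10.5 ± 0.505 CPM in WT (SD, n = 6 each; log2 fold change 0.39, SE 0.088, edgeR adjusted p = 0.00854).

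The other 5 tested factors did not pass over both media. ZEB1 (chr10:31318495-31529814, plus strand), which acts with ZEB2 on E-boxes, had 52.1 CPM (heavy medium) and 70.2 CPM (light medium) in KO line 1, 63.4 and 68.4 CPM in line 2, and 63.1 and 52.6 CPM in line 3. WT cells had 59.1, 50.1 and 42.8 CPM in heavy medium and 57.1, 47.9 and 53.4 CPM in light medium. The groups overlapped, with 4 KO libraries above the WT range (log2 fold change 0.25, SE 0.092, edgeR adjusted p = 0.0597). ZEB1 passed without the library labelled KO line 1, heavy (0.29, adjusted p = 0.0386), without the light library of KO line 3 (0.30, adjusted p = 0.0126), without the heavy WT library with number 1 (0.30, adjusted p = 0.0323), without both libraries of line 3 (0.29, adjusted p = 0.0160) and in DESeq2 (0.24, adjusted p = 0.0444). ZEB1-AS1, which lies antisense to it, shares 366 exonic bases and had 187 to 328 counts.

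SNAI2 (chr8:48917604-48921740, minus strand), the Slug repressor of neural crest cells, had 2.38 CPM (heavy medium) and 2.66 CPM (light medium) in KO line 1, 1.35 and 1.77 CPM in line 2, and 5.15 and 2.56 CPM in line 3. WT cells had 4.73, 4.54 and 3.73 CPM in heavy medium and 3.71, 2.94 and 3.49 CPM in light medium. The heavy library of line 3 lay above the WT range and the other 5 KO libraries lay below it (log2 fold change -0.54, SE 0.246, edgeR adjusted p = 0.121). SNAI2 passed without that library (-0.83, adjusted p = 0.00596) and without both libraries of line 3 (-0.90, adjusted p = 0.00111).

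SNAI1 (chr20:49982999-49988886, plus strand), the Snail repressor, had 6.31 CPM (heavy medium) and 12.7 CPM (light medium) in KO line 1, 6.01 and 8.37 CPM in line 2, and 8.19 and 6.55 CPM in line 3. WT cells had 8.49, 8.09 and 7.01 CPM in heavy medium and 6.99, 7.53 and 6.19 CPM in light medium. The light library of line 1 stood above all others, the heavy library of line 2 just below the WT range, and the other 4 KO libraries within it (log2 fold change 0.11, SE 0.167, edgeR adjusted p = 0.666).

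RUNX1 (chr21:34787801-36004667, minus strand), a core-binding factor subunit known from blood and sensory neuron development, was counted rather than measured finely, with 30 counts in 6 KO libraries and 77 counts in 6 WT libraries. KO line 1 had 16 counts in heavy and 0 counts in light medium, line 2 had 0 and 0 counts, and line 3 had 7 and 7 counts. WT cells had 15, 12 and 15 counts in heavy medium and 11, 7 and 17 counts in light medium. The 3 KO libraries at 0 lay below the WT range, and the others overlapped it (log2 fold change -1.43, SE 0.648, edgeR adjusted p = 0.121). Without the library labelled KO line 1, heavy, RUNX1 passed (-2.14, adjusted p = 0.0407), a fitted value that depends on the prior count because of the zeros.

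FOSL1 (chr11:65892049-65900573, minus strand), the other AP-1 subunit, had 0.116 and 0.198 CPM in KO line 1, 0.113 and 0.232 CPM in line 2, and 0.368 and 0.319 CPM in line 3 in heavy and light medium. WT cells had 0.304, 0.354 and 0.111 CPM in heavy medium and 0.427, 0.198 and 0.230 CPM in light medium. The groups overlapped throughout, with 44 counts in KO and 52 in WT, and FOSL1 did not pass (log2 fold change -0.26, SE 0.383, edgeR adjusted p = 0.653).

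The lines were then set against WT one at a time, each with 2 libraries and a spread estimated over all 12. The 3 comparisons share the WT libraries, so their values are given side by side. In line 1, 4 of 8 factors passed, 1 higher and 3 lower, where 28.2% of all genes did (15.4% higher and 12.8% lower). In line 2, 6 of 8 passed, 2 higher and 4 lower, where 43.0% did (22.9% higher and 20.1% lower). In line 3, 1 of 8 passed, lower, where 5.00% did (3.27% higher and 1.73% lower).

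TWIST1 had a log2 fold change of -0.43 in line 1 (SE 0.058, edgeR adjusted p = 2.18e-05), -0.64 in line 2 (SE 0.059, adjusted p = 9.05e-08) and -0.20 in line 3 (SE 0.057, adjusted p = 0.0482). ZEB2 had -0.43 in line 1 (adjusted p = 0.00498), -0.71 in line 2 (adjusted p = 4.96e-05) and -0.23 in line 3 (SE 0.100, adjusted p = 0.224, not passed). SNAI2 had -0.59 in line 1 (adjusted p = 0.0425) and -1.31 in line 2 (adjusted p = 0.000209), and -0.03 in line 3 (SE 0.197, adjusted p = 0.957). These factors were lowest in line 2 and nearest to WT in line 3.

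FOSL2 rose in line 1 (0.49, SE 0.111, edgeR adjusted p = 0.00249) and in line 2 (0.31, SE 0.114, adjusted p = 0.0329), and had 0.35 in line 3 (SE 0.112, adjusted p = 0.0823, not passed). ZEB1 rose in line 2 (0.35, SE 0.128, adjusted p = 0.0446) and had 0.24 in line 1 (adjusted p = 0.201) and 0.16 in line 3 (adjusted p = 0.555). RUNX1 fell in line 2 (edgeR adjusted p = 0.0029), where it had 0 counts in both libraries, and it passed the filter on low counts through the WT libraries, where it was higher; against 3 counts for the group it was at least 7.96-fold lower than the pooled WT level of 0.389 CPM. SNAI1 and FOSL1 passed in none of the lines (edgeR adjusted p between 0.263 and 0.992 for SNAI1 and between 0.332 and 0.730 for FOSL1). With no filter on low counts, SNAI1 (edgeR adjusted p = 0.0248) and ZEB1 (adjusted p = 0.00605) passed in line 1.

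Without the library labelled KO line 1, heavy, line 1 rests on its light library alone, which is assumed to vary like the others. SNAI2 then no longer passed in line 1 (-0.31, adjusted p = 0.429), while ZEB1 (0.44, adjusted p = 0.0316), SNAI1 (0.83, adjusted p = 0.00101) and RUNX1 (adjusted p = 0.00517, on 0 counts) did. TWIST1 (-0.56), ZEB2 (-0.54) and FOSL2 (0.64) passed with and without it. Leaving that library out also moved line 3, in which 2 factors then passed, with FOSL2 at 0.35 (adjusted p = 0.0431). FOSL2 in line 3 also passed with the light library of line 1 left out (adjusted p = 0.0444), or its own heavy library (0.56, adjusted p = 0.0313), and ZEB2 in line 3 passed without the heavy WT library with number 3 (-0.29, adjusted p = 0.0372). Without the light library of line 1, ZEB2 (-0.31, adjusted p = 0.164) and FOSL2 (0.34, adjusted p = 0.174) no longer passed in line 1. SNAI2 in line 1 also no longer passed when the heavy WT library with number 1 or 2, or the light one with number 1 or 3, was left out (adjusted p between 0.0641 and 0.0722).

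Without the heavy library of line 2, ZEB1 (adjusted p = 0.176), FOSL2 (adjusted p = 0.345) and RUNX1 (adjusted p = 0.085) no longer passed in line 2. Without its light library, ZEB1 (adjusted p = 0.207) and FOSL2 (adjusted p = 0.075) did not pass in line 2. The calls of ZEB1 and FOSL2 in line 2 also rested on single WT libraries. ZEB1 did not pass when the heavy or light WT library with number 2 or 3 was left out (adjusted p between 0.0683 and 0.0733), or with RLE scaling (adjusted p = 0.0514). FOSL2 did not pass when any 1 of the light WT libraries was left out (adjusted p between 0.0536 and 0.0666). The adjusted p of TWIST1 in line 3 lay between 0.0648 and 0.284 when a library of line 3, a light WT library or the heavy WT library with number 2 was left out.

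A joint test of the difference among the lines found 3 of 8 factors, where 23.2% of all genes passed. TWIST1 (edgeR adjusted p = 0.000483), SNAI2 (adjusted p = 0.00669) and ZEB2 (adjusted p = 0.0278) differed among the lines. RUNX1 (adjusted p = 0.0776), FOSL1 (0.306), SNAI1 (0.477), FOSL2 (0.583) and ZEB1 (0.679) did not pass. RUNX1 did pass in DESeq2 (adjusted p = 0.0142) and in edgeR with no filter on low counts (adjusted p = 0.00156). Without the library labelled KO line 1, heavy, SNAI1 (adjusted p = 0.00344) and RUNX1 (adjusted p = 0.00759) also passed. SNAI2 and ZEB2 no longer passed without the heavy library of line 2, or without that of line 3. ZEB2 also no longer passed without the light library of line 2. Each of these fits leaves a line with 1 library.

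**Figure D3:**
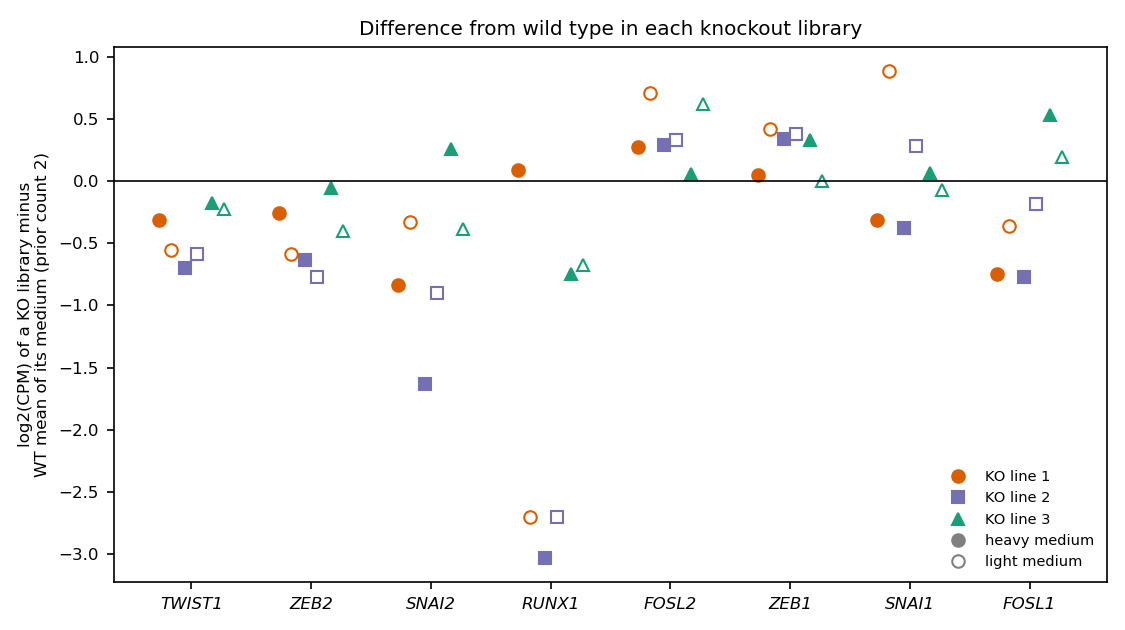
Log2 CPM of each KO library minus the WT mean of its medium (prior count 2; 0 is the WT level), by factor, coloured by line, filled in heavy and open in light medium. TWIST1 lies between -0.18 and -0.70 in the 6 KO libraries, and the libraries of RUNX1 with 0 counts lie lowest.

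In heavy medium alone none of the 8 tested factors passed, where 0.112% of all genes did. TWIST1 came nearest (log2 fold change -0.38, SE 0.119, edgeR adjusted p = 0.166) and was the 1 factor with an unadjusted p under 0.05, where 2885 of 16083 genes had one, and it passed in DESeq2. In light medium alone 6 factors were tested and ZEB2 passed (-0.59, SE 0.107, edgeR adjusted p = 0.0471), where 1.44% of all genes did (0.906% higher and 0.537% lower). TWIST1 (-0.45, SE 0.096, adjusted p = 0.0609) and FOSL2 (0.56, SE 0.119, adjusted p = 0.0604) lay just outside the threshold. ZEB2 no longer passed in light medium when any 1 library other than the light library of KO line 3 was left out. Without that library 7 of 7 tested factors passed, when 6240 of 16253 genes did. The 7 include RUNX1 or FOSL1, which were not tested with all light libraries kept and have few counts. RUNX1 had 0 counts in the light libraries of lines 1 and 2, so it could enter that fit only through WT, where it was higher.

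No factor passed the test of the medium. Heavy against light medium gave no call among 7 factors tested in WT, where 0.00631% of all genes passed, and none among 6 in KO, where 0% did. SNAI2 came nearest, in WT, at 0.37 (SE 0.142, edgeR adjusted p = 0.941). All 3 heavy WT libraries of SNAI2 lay above the 3 light ones, at the closest with 3.73 against 3.71 CPM. TWIST1 separated in the same way in WT, at the closest with 336 against 328 CPM. The share of all genes whose libraries separate by medium was not counted. In KO, SNAI1 had -0.43 (SE 0.259, adjusted p = 1.00) and FOSL2 -0.28 (SE 0.133, adjusted p = 1.00), and in the test of whether the KO effect differed between media, 0 of 8 factors passed, where 0% of all genes did. SNAI2 had an unadjusted p under 0.05 for the medium in WT, as did 808 of 15845 genes. No factor did in KO, where 138 of 16206 genes did, and FOSL2 did in the test between media, where 149 of 16704 genes did. DESeq2 called no factor in any of the 3 tests.

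Lists of partners and targets of these factors were read against the same background of 15.0% higher and 9.78% lower. Of 9 tested partners of TWIST1 and ID proteins, 4 fell and none rose: ID4, an inhibitor of such factors, with 0.622 ± 0.364 CPM in KO and 2.20 ± 0.420 CPM in WT (SD, n = 6 each; log2 fold change -1.88, edgeR adjusted p = 0.000471), and TCF4 (-0.26, adjusted p = 0.00792), TCF12 (-0.39, adjusted p = 0.0207) and TCF3 (-0.41, adjusted p = 0.028), the E proteins with which TWIST1 pairs. The median of the 9 was -0.26, with -0.29 in line 1, -0.35 in line 2 and 0.01 in line 3. Of 11 tested corepressors of SNAI and ZEB factors, 5 fell and 1 rose. EZH2, which methylates histone H3 (-0.55, adjusted p = 0.0179), the deacetylases HDAC2 (-0.21, adjusted p = 0.0235) and HDAC1 (-0.17, adjusted p = 0.0358) and CTBP2 (-0.19, adjusted p = 0.0373), which binds ZEB factors, were among those that fell. Without the library labelled KO line 1, heavy, 3 of these 11 fell and none rose. In that fit 3788 of 16874 genes passed, 2266 of them higher.

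Of 10 tested partners and corepressors of RUNX factors, 3 fell, among them the Groucho corepressor TLE1 (-0.59, edgeR adjusted p = 0.0101) and RUNX1T1 (-1.36, adjusted p = 0.0315), with 11.9 ± 7.32 CPM in KO and 30.3 ± 1.49 CPM in WT (SD, n = 6 each). TLE3 had -0.76 and did not pass (adjusted p = 0.0606). Of 13 tested AP-1 partners, 1 rose: JDP2, a Jun dimerisation protein (0.91, adjusted p = 0.0364), which had 1.06 in line 1, 1.43 in line 2 and -0.17 in line 3. FOS, the immediate early AP-1 subunit, had 0.71 and did not pass (adjusted p = 0.161), nor did MAFG (0.12, adjusted p = 0.065) or ATF2 (0.17, adjusted p = 0.0671).

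**Figure D4:**
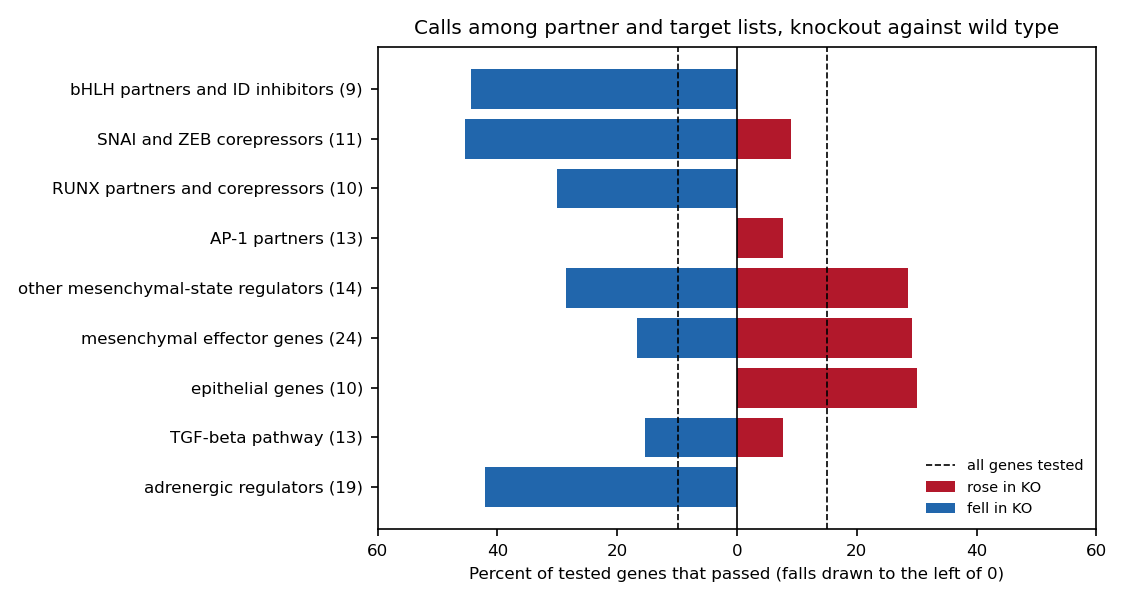
Share of the tested genes of each list (number in brackets) that rose (right) or fell (left) in KO over both media, with dashed lines at the shares over all genes, 15.0% and 9.78%. The 9 partners of TWIST1 and ID proteins, the 10 RUNX partners and corepressors and the 19 adrenergic regulators hold falls and no rises. The AP-1 partners and the epithelial genes hold rises and no falls.

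Among 14 tested regulators of the mesenchymal state, 4 rose and 4 fell. PRRX2, a paralogue of PRRX1, rose (0.64, edgeR adjusted p = 0.00234) with 15.4 ± 2.57 CPM in KO and 9.89 ± 0.972 CPM in WT (SD, n = 6 each), as did AEBP1 (0.33, adjusted p = 0.00423). SIX4 (-1.89, adjusted p = 0.00249) and SOX9 (-1.72, adjusted p = 0.0105), at under 3 CPM in either genotype on average, fell. SIX4 averaged 0.204 CPM in KO and 0.778 CPM in WT. It entered the test mostly through the WT libraries, where it was higher. Of 24 tested mesenchymal effector genes, 7 rose and 4 fell, including rises of VIM, which encodes vimentin (1.18, adjusted p = 0.00522), and of the matrix protease MMP2 (0.40, adjusted p = 0.00147), and falls of PDGFRB (-0.36, adjusted p = 0.000973) and LUM (-1.17, adjusted p = 0.00445). Their median was -0.04. Of 10 tested epithelial genes, 3 rose: KRT19 (1.35, adjusted p = 0.00271), CLDN4 (0.85, adjusted p = 0.0135) and OCLN (0.47, adjusted p = 0.0492), each below 5 CPM on average. The gene of E-cadherin was not among the 10. Of the 25 epithelial genes listed, 17 were under 1 CPM in every library. The summed level of the 25 overlapped, at 87.3 to 96.9 CPM in KO and 86.0 to 103 CPM in WT. JUP had -0.20 and did not pass (adjusted p = 0.0707). Without the library labelled KO line 1, heavy, 2 of the 10 rose, where 2266 of 16874 genes did.

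Of 13 tested genes of TGF-beta signalling, which induces SNAI and ZEB factors in many cells, the inhibitor SMAD7 (-0.48, edgeR adjusted p = 0.00969) and the receptor gene TGFBR2 (-1.59, adjusted p = 0.0282) fell and the ligand gene TGFB1 rose (0.98, adjusted p = 0.02), while SKIL did not pass (-0.16, adjusted p = 0.0614). Of 19 tested adrenergic regulators, 8 fell and none rose, among them SOX11 (-0.62, adjusted p = 0.00578), INSM2 (-0.82, adjusted p = 0.0078), HEY1 (-0.66, adjusted p = 0.0135) and EYA1 (-0.25, adjusted p = 0.0164). Their median was -0.21. By line, TGFB1 had 1.15 in line 1, 1.42 in line 2 and 0.03 in line 3. In line 3 alone 5.00% of all genes passed. There no AP-1, SNAI and ZEB partner, mesenchymal regulator, epithelial or TGF-beta gene passed. In that line 1 RUNX partner, 1 partner of TWIST1 or ID protein and 5 adrenergic regulators fell, and 5 effector genes rose and 2 fell. On counts summed per number, 272 of 17726 genes passed, 193 of them higher. There 1 E protein or ID gene, 1 regulator of the mesenchymal state and 1 effector gene fell. No AP-1, RUNX, SNAI and ZEB partner, epithelial, TGF-beta or adrenergic gene passed.

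Marker lists were read in the same way. Of 10 tested sympathoadrenal markers, 2 rose and 2 fell, with GAP43, of growing axons, at 1.49 (edgeR adjusted p = 0.0106), CHGB at 0.48 (adjusted p = 0.0359), DBH at -0.72 (adjusted p = 0.0275) and NEFM at -0.51 (adjusted p = 0.0384). Of 7 tested fibroblast markers, 3 fell, PDGFRB and LUM, which are also among the effector genes, and PDGFRA (-1.45, adjusted p = 0.0368), and COL1A1 did not pass (-1.01, adjusted p = 0.0593). Of 5 tested Schwann cell markers, 3 rose, PMP22 (1.77, adjusted p = 0.00436), ERBB3 (1.17, adjusted p = 0.0105) and S100B (1.24, adjusted p = 0.041), and NGFR did not pass (0.47, adjusted p = 0.186). By line, PMP22 had 1.89 in line 1, 2.31 in line 2 and 0.71 in line 3, ERBB3 had 1.51, 1.47 and 0.20, and S100B had 1.35, 1.92 and -0.29. The median of the 5 was -0.29 in line 3. In that line alone 1 Schwann cell and 1 sympathoadrenal marker rose, 1 fibroblast marker fell and no endothelial or immune marker passed. Of 8 endothelial markers, 7 were under 1 CPM in every library. The other, EGFL7, rose (0.32, adjusted p = 0.0151). CLDN5 also passed (2.07, adjusted p = 0.0252), at 0.331 ± 0.189 CPM in KO and 0.082 ± 0.077 CPM in WT (SD, n = 6 each), but it entered the test through the KO libraries, where it was higher. Neither immune marker passed, CD14 (0.46, adjusted p = 0.108) and CD79A (0.54, adjusted p = 0.362). On counts summed per number, where 272 of 17726 genes passed, 193 of them higher, 1 fibroblast marker fell. No sympathoadrenal, Schwann cell, endothelial or immune marker passed there. Without the library labelled KO line 1, heavy, 3788 of 16874 genes passed, 2266 of them higher. In that fit 1 sympathoadrenal marker rose and 1 fell, and 2 Schwann cell markers rose. There 3 regulators of the mesenchymal state rose and 4 fell, and 8 effector genes rose and 4 fell.

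By Pearson's r of log2 CPM over the 12 libraries, among 13632 genes of at least 1 CPM, the genes most like TWIST1 were VOPP1 (0.989), IRX3 (0.989) and BAG3 (0.988). Those most like ZEB2 were RPRD1A (0.983), TNFAIP8 (0.978) and AHCYL1 (0.976), and those most like FOSL2 were TESK1 (0.920), CRTC1 (0.895) and TYMP (0.892). These points share genotype, line and library depth.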

How the data were processed

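RNA was sequenced from 12 libraries of SH-SY5Y cells. Per the labels' protocols, libraries were poly(A)-selected. The submitters' processing notes name bcl2fastq 2.19.0, STAR 2.7.0f, the build GRCh38.p13, featureCounts (Subread 1.6.4), DESeq2 1.22.1 and R 3.5.1. The deposited table holds raw read counts per gene, with the annotation release, strand setting and handling of multi-gene reads not given in the sources used here. Positions and exon lengths came from GENCODE release 29 (GRCh38), in which 56414 of 59087 features were found by symbol.

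Counts were tested with edgeR 4.0.16 (limma 3.58.1, R 4.3.3): TMM factors, filterByExpr by group with a minimum count of 10, robust quasi-likelihood F tests, and Benjamini-Hochberg adjustment over all genes tested, at 0.05. An adjusted p in the text means this test unless DESeq2 is named. CPM were computed here on TMM-scaled library sizes, and SE is the size of the log2 fold change divided by the square root of F. Medium was a covariate in fits over both media, and each line enters such a fit with 2 libraries. Intervals, SDs and floors of 3 counts cover these libraries and counting error only.

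The 10 members, the 14 other lists and the tests were chosen with earlier results of these data known. All members were named, with FMR1 as the check of the labels, up to 4 genes of each list with the smallest p, and for each member that passed the 3 genes most like it. One list gene that this rule picked is not reported here. The labels give the 2 KO libraries of a number the same line, and their deviations from the group means had r of 0.09, 0.62 and 0.66. Alternatives were RLE factors, DESeq2 1.42.0, no filter, a minimum of 1 CPM in 3 libraries, each library or KO line left out, the number as a block and counts summed per number. List counts without the library labelled KO line 1, heavy, and on summed counts were added after seeing the data.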

Additional observations from a re-analysis of the deposited data

Results flagged for a closer look

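Among 19 groups of 6 libraries tested for a single value that stands apart by Dixon's gap test, 4 were found. Chance gives about 1 in 20 for 6 independent values from 1 normal distribution. These groups pool both media, and those of KO pool 3 lines with 2 libraries each, so that rate may not hold. SNAI1 had 12.7 CPM in the light library of KO line 1, far above the other KO libraries. SNAI2 had 5.15 CPM in the heavy library of KO line 3, far above the other KO libraries. FMR1 had 22.4 CPM in the library labelled KO line 1, heavy, far above the other KO libraries. FMR1 had 42.0 CPM in the heavy WT library with number 1, above the other WT libraries. The test of the difference among the KO lines passed for TWIST1 (edgeR adjusted p = 0.000483), SNAI2 (adjusted p = 0.00669) and ZEB2 (adjusted p = 0.0278). The causes were not tested.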

How the results depend on the processing

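Over both media (3 members), 5 passed without line 3, none on summed counts and 3 to 5 with 1 library left out, 5 without the library labelled KO line 1, heavy. In heavy medium (none) 1 passed with no filter, 1 in DESeq2 and 0 to 2 with 1 library left out, 2 without that of KO line 3. In light medium (1) 3 passed with no filter, 3 in DESeq2, 0 with the CPM filter and 0 to 7 with 1 library left out, 7 without that of KO line 3. Those 7 include RUNX1 or FOSL1, which were not tested in light medium with all libraries kept. With 1 library left out, line 1 (4) gave 2 to 6, the low value without its light library; line 2 (6) gave 3 to 6, the low value without its heavy library; line 3 (1) gave 0 to 2, and 3 with no filter; and the difference among lines (3) gave 1 to 5.

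The values whose direction turned had not passed the test as reported. Over both media SNAI1 (0.11) came to -0.023 without line 1 and ranged from -0.067 to 0.18 with 1 library left out. The ranges with 1 library left out were -0.26 to 0.83 for SNAI1 in line 1, -0.29 to 0.16 in line 2 and -0.28 to 0.23 in line 3, -0.50 to 0.34 for SNAI2 and -0.051 to 0.35 for ZEB1 in line 3, and -6.54 to 0.10 for RUNX1 in line 1. The causes were not tested.

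Among all genes, calls over both media (4135) came to 2327, 1710 and 7415 without line 1, 2 and 3, and 272 on summed counts. In heavy medium (18) they came to 775 with no filter, 9 with the CPM filter and 809 in DESeq2, in light medium (231) to 1351 with no filter and 1723 in DESeq2, in line 3 (836) to 1387 with no filter, and for the medium in WT (1) to 39 with no filter and 9 in DESeq2. With 1 library left out they ranged from 2632 to 5907 over both media, 0 to 2243 in heavy medium, 4 to 6240 in light medium, 1538 to 4926 in line 1, 4200 to 7456 in line 2, 287 to 1269 in line 3 and 2175 to 4410 among lines.

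A block for the replicate number pairs KO with WT by number only (deviations correlated between -0.12 and -0.01). With this block 4 members passed over both media, ZEB1 being the addition (adjusted p = 0.0494), none in heavy and 1 in light medium, and 4484, 94 and 153 genes in all. Within KO the block pairs libraries of 1 line and changed no call for the medium. FOSL1, RUNX1, RUNX2 and PRRX1 had the least depth behind them, at under 1 CPM in every library.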
